A study of Macaca mulatta with 2 samples.

Results

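The expression of astrocyte identity and reactivity genes was examined in bulk RNA-seq of untreated, wild-type macaque (*Macaca mulatta*) optic nerve. The genes were chosen by name, as 37 markers of astrocyte filaments, endfeet, metabolism, signalling, transcription and reactivity, and 36 of them were found among the 16684 genes of the expression table. *LGALS1* was not analysed here. The study holds 1 condition with 2 libraries, called Rep1 and Rep2, made from total RNA of postmortem nerves. The study's methods name a 12-year-old male as the source, whereas the deposited design gives 2 animals, so it is not settled whether the libraries are separate animals. No cells were sorted, so the RNA of every cell type of the nerve was pooled in each library, and lower values could mean fewer astrocytes or less RNA per astrocyte, which cannot be told apart here. Values are TPM, a gene's share of the length-corrected reads in its library, and each is given for both libraries because no test of a condition is possible with 1 group.

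Astrocytes are the star-shaped glia of the optic nerve. They form the framework between axon bundles, cover blood vessels and the nerve surface with endfeet, and supply axons with ions, water and fuel. Their cytoskeleton is built from intermediate filaments, of which GFAP is the best known. After injury or raised eye pressure astrocytes become reactive, a state usually recognised by more GFAP, vimentin and nestin and by induced products such as lipocalin 2 and the iron reductase STEAP4.

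Astrocyte transcripts were found in both libraries and were led by the same 4 genes. *CLU*, *GFAP*, *VIM* and *GLUL* stood in the same leading order in Rep1 and in Rep2, and together took 69.6% of the summed level of the 36 genes in Rep1 and 82.2% in Rep2. That sum was 3370.3 TPM in Rep1 against 23091 TPM in Rep2, or 13231 ± 13944 TPM (SD, n = 2). As a share of each library this was 0.337% and 2.31%. By mean level 12 genes reached at least 100 TPM, 11 lay between 10 and 100, 9 between 1 and 10, and 4 below 1 TPM. Of the 36 genes, 29 were above 0 in both libraries and 7 were listed at 0 in Rep1 alone, as were 30.2% of the 14693 genes found in either library. The levels in Rep1 and Rep2 followed each other across the 36 genes, with a Spearman rho of 0.821 and a Pearson r of 0.849 on the log2(TPM + 1) scale, against 0.719 and 0.708 over the 14693 genes above 0 in at least 1 library. Among the 29 genes above 0 in both libraries rho was 0.731 and r was 0.780, so the 7 genes listed at 0 in Rep1 raised the former values. The values over the 14693 genes were not restricted in this way. All of these are correlations across genes of the same libraries, which are not independent replicates.

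The libraries differed in depth and content, and this bears on every value that follows. A single read moved a gene's TPM 17.2 times more in Rep1 than in Rep2, as the ratios of the values showed, so Rep1 is the shallower library, and 38.5% of genes were listed at 0 there against 12.5% in Rep2. Where read numbers are given below, they are the smallest whole numbers that fit the ratio of the gene's values, and so are lower bounds. Most genes were lower in Rep1, with a shift of -1.19 on the log2 scale, taken as the median ratio over genes (median-ratio scaling). The 11 photoreceptor markers examined summed to 3521 TPM in Rep1, led by *GNAT1* (2763 TPM) and *PDE6G* (514 TPM), and to 28.5 TPM in Rep2, where *CRX* was listed at 0, and 9 of the 11 were higher in Rep1. The part of these differences in the astrocyte values was not tested.

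**Figure D1:**
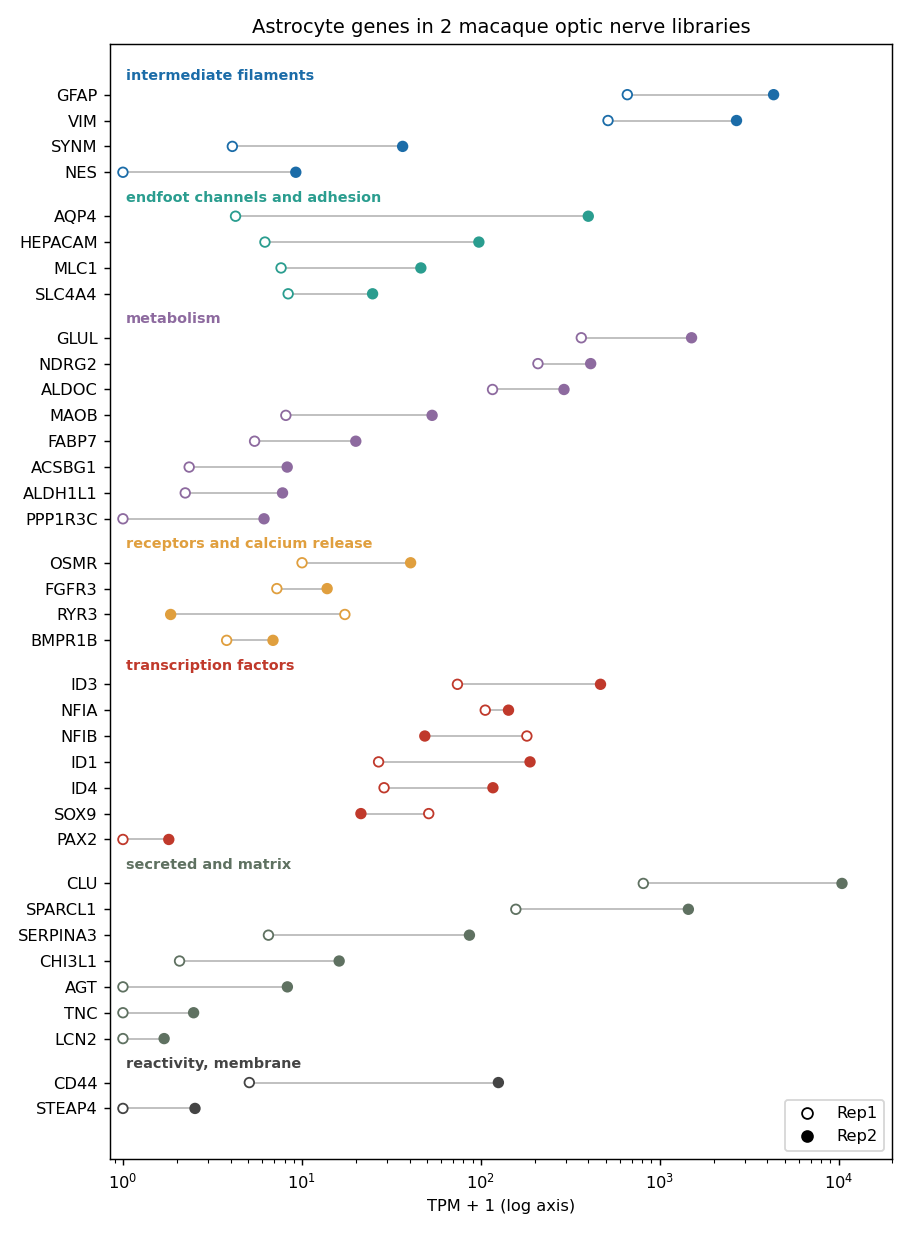
Level of each of the 36 astrocyte genes (TPM + 1, log axis) in Rep1 (open circles) and Rep2 (filled circles), grouped by role, each line joining the 2 libraries of a gene. *CLU*, *GFAP*, *VIM* and *GLUL* are highest in both libraries, and *RYR3*, *NFIB* and *SOX9* are the genes whose open circle lies to the right.

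*GFAP* and *VIM* were among the most abundant transcripts of the nerve, with *GFAP* above *VIM* in both libraries, whereas the filament genes *SYNM* and *NES* were far lower. *GFAP*, encoding the astrocyte filament protein, was at 658 TPM in Rep1 against 4331 TPM in Rep2 (2495 ± 2597 TPM, SD, n = 2), which placed it at percentile 99.8 of the 14693 genes. *VIM*, encoding vimentin, which is also made by fibroblasts, endothelial cells and microglia, was at 513 TPM in Rep1 against 2687 TPM in Rep2, at percentile 99.6. The ratio of *GFAP* to *VIM* within a library does not depend on the scaling of that library, and it was 1.28 in Rep1 and 1.61 in Rep2. *SYNM*, encoding synemin, which joins filaments to the membrane, was at 3.09 and 35.6 TPM, the former resting on at least 1 read. *NES*, encoding nestin, a filament of immature and reactive astrocytes, was listed at 0 in Rep1 and at 8.25 TPM in Rep2. A value of 0 at that level was not unusual, since 31.5% of the 200 genes nearest to *NES* in Rep2 were also listed at 0 in Rep1. In Rep2 the ratio of *GFAP* to *NES* was 525. All 4 genes were at least 2-fold lower in Rep1 on the log2(TPM + 1) scale, as were 58.7% of the 11754 genes averaging 1 TPM or more. The partners of these filaments examined beside them were also lower there, *LMNA* at 101 and 1028 TPM, *DST* at 45.9 and 246 TPM and *DES* at 20.2 and 49.6 TPM, with 4 of 4 at least 2-fold lower in Rep1. After median-ratio scaling 3 of these 4 partners were, as were 40.2% of the 11754 genes.

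In the Mmul_10 genome *GFAP* occupies chromosome 16, bases 56169389 to 56180984, minus strand, with 10 exons in its longest annotated transcript, and *VIM* lies on chromosome 9 from 18373874 to 18383435 on the plus strand, with 9 exons. The 250 bases before the annotated start of *GFAP* (chr16:56180985-56181234, minus strand, 59.2% GC) and of *VIM* (chr9:18373624-18373873, plus strand, 46.4% GC) are shown because these are the pair of filament genes that dominate the nerve. They are read 5′ to 3′ from the genome, and capitals mark matches to TTGGC or its reverse complement GCCAA, the short site of the NFI transcription factors that the astrocyte genes *NFIA* and *NFIB* encode.
GFAP: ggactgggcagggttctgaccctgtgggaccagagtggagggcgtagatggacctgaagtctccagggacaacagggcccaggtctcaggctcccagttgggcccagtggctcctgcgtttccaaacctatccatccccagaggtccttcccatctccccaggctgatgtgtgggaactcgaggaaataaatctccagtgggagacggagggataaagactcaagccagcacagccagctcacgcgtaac
VIM: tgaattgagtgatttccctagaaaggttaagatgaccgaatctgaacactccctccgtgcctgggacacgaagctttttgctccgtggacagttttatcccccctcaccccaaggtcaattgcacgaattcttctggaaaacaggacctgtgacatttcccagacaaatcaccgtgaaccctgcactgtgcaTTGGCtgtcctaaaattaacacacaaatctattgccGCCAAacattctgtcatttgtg
The *VIM* window held 2 such matches, 58 and 22 bases before the start, and the *GFAP* window held none. No match says only that these letters are not in this window.

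All 4 genes of the endfoot membrane were lower in Rep1, and *AQP4* had the largest difference of the 36 genes. *AQP4*, encoding the water channel of the astrocyte endfoot, was at 3.26 TPM in Rep1, resting on at least 1 read, and at 398 TPM in Rep2, with at least 2098 reads behind it. The log2 difference (Rep1 minus Rep2) was -6.55, which was 3.15 times the root mean square difference of the 200 genes nearest to it in mean level, and no other astrocyte gene reached 2 times. *HEPACAM*, encoding the adhesion protein that anchors MLC1 at astrocyte contacts, was at 5.22 and 96.6 TPM. *MLC1* itself was at 6.65 TPM in Rep1 against 45.3 TPM in Rep2, and so was above *HEPACAM* in Rep1 and below it in Rep2. *SLC4A4*, encoding a sodium bicarbonate cotransporter, differed least of the group, at 7.38 and 23.9 TPM. All 4 were at least 2-fold lower in Rep1, where 58.7% of genes were, and 3 of 4 with median-ratio scaling, where 40.2% were. Their sum was 22.5 TPM in Rep1 against 564 TPM in Rep2. Set against *GFAP* in the same library, *AQP4* reached 0.495% of the *GFAP* level in Rep1 and 9.19% in Rep2, whereas the ratio of *MLC1* to *GFAP* was nearly equal, with a log2 difference of -0.05. *HEPACAM* lay between them, at 0.793% of *GFAP* in Rep1 and 2.23% in Rep2, and like that of *AQP4* its Rep1 value may rest on 1 read. *AQP4* overlaps an uncharacterized non-coding gene on the opposite strand and *HEPACAM* overlaps *HEPN1*, and since the use of strand in counting is not given in the sources used here, their reads could have been assigned to either gene.

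The *AQP4* promoter is shown because this gene had the largest difference of the 36. *AQP4* lies on chromosome 18 from 55583676 to 55597371 on the plus strand, with 5 exons in its longest transcript, and the window (chr18:55583426-55583675) had a GC content of 36.4%, against a median of 56.2% in the windows of the 36 genes and 59.2% in those of 16672 listed genes.
AQP4: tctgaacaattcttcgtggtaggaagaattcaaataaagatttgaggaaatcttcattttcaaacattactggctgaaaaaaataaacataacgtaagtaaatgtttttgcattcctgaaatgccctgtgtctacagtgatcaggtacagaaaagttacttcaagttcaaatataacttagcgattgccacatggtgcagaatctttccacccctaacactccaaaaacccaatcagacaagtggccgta
None of the 6 motifs searched was found in it.

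Metabolic genes of astrocytes ranged from high to low levels, with *GLUL* the highest and *PPP1R3C* the lowest by mean. *GLUL*, encoding glutamine synthetase, which turns glutamate into glutamine and is also present in oligodendrocytes and Muller glia, was at 364 TPM in Rep1 against 1506 TPM in Rep2, at percentile 99.2 of the mean. *NDRG2*, encoding a cytosolic protein enriched in astrocytes, was at 208 and 410.4 TPM. *ALDOC*, encoding the brain form of the glycolytic enzyme aldolase, was at 115 and 291 TPM. These 3 genes were each at least at percentile 91.3 in both libraries, so their place among other genes was alike. *MAOB*, encoding the monoamine oxidase of astrocyte mitochondria, was at 7.14 and 52.5 TPM. *FABP7*, encoding a fatty acid-binding protein of radial glia and astrocytes, was at 4.44 and 19.0 TPM. *ALDH1L1*, a folate enzyme widely used as the general astrocyte marker, was low in both libraries, at 1.23 TPM in Rep1 against 6.80 TPM in Rep2, close to the lipid enzyme *ACSBG1* at 1.35 and 7.28 TPM. *ALDH1L1* stood at percentile 37.8 in Rep1 and 40.6 in Rep2, so of the metabolic markers the one most used to name astrocytes lay below the median gene in both. The Rep1 values of *ALDH1L1* and *ACSBG1* may each rest on 1 read, so the Rep1 percentile is uncertain. In Rep2 they rested on at least 95 and 93 reads. *PPP1R3C*, encoding a regulator of glycogen synthesis, was listed at 0 in Rep1 and at 5.15 TPM in Rep2. Of the 8 genes 7 were at least 2-fold lower in Rep1, *NDRG2* being just inside that limit with a log2 difference of -0.98. Of the genes averaging 1 TPM or more, 58.7% were at least 2-fold lower there. With median-ratio scaling 2 of the 8 were, *MAOB* and *PPP1R3C*, against 40.2% of the 11754 genes.

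Receptor and calcium channel genes were at low to moderate levels. *OSMR*, encoding the oncostatin M receptor, which signals through gp130 and STAT3, was the highest of the 4 by mean, at 9.02 TPM in Rep1 against 39.5 TPM in Rep2. *FGFR3*, encoding a fibroblast growth factor receptor of astrocytes, was at 6.25 and 12.8 TPM. *BMPR1B*, encoding a type I receptor for bone morphogenetic proteins, was at 2.80 and 5.90 TPM, so both lay within 2-fold on the log2(TPM + 1) scale. *RYR3*, encoding a calcium release channel of internal stores, went the other way, at 16.4 TPM in Rep1 against 0.848 TPM in Rep2, 19.3-fold higher in Rep1. It rested on at least 9 reads in Rep1 and 8 in Rep2, and its log2 difference of 3.23 was 1.12 times the root mean square difference of its nearest genes. *RYR3* also overlaps another coding gene on the same strand in the annotation, so its reads are uncertain to that extent.

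The transcription factors did not all differ in the same direction between the libraries. Of the 7, 2 were at least 2-fold higher in Rep1 and 3 at least 2-fold lower. Of all genes averaging 1 TPM or more, 18.2% and 58.7% were. The differences of *NFIB*, *SOX9* and *ID4* were 0.89, 0.57 and 0.92 times the root mean square difference of their nearest genes. Those of *ID1* and *ID3* were 1.22 and 1.08 times theirs. *NFIB*, encoding a nuclear factor I protein that promotes gliogenesis, was at 180.0 TPM in Rep1 against 47.7 TPM in Rep2, 3.78-fold higher in Rep1. *SOX9*, which specifies the astrocyte lineage and is also expressed by Muller glia, was at 50.2 and 20.4 TPM, 2.46-fold higher in Rep1. *NFIA*, the partner of *NFIB* in gliogenesis, was at 105 and 142 TPM, with a log2 difference of -0.43 as deposited, the smallest of the 36 genes, and of 0.75 with median-ratio scaling, where *BMPR1B* had the smallest at 0.09. The ratio of *NFIB* to *NFIA* was 1.72 in Rep1 and 0.336 in Rep2, so the order of these paralogs was not the same in both libraries. The *ID* genes, encoding inhibitors of DNA binding that are induced by bone morphogenetic proteins and are also high in endothelial cells, were lower in Rep1. *ID3* was at 73.1 and 466 TPM, *ID1* at 25.8 and 188 TPM, and *ID4* at 27.8 and 116 TPM. *ID3* was the highest *ID* gene of the 3 in both libraries, and its ratio to *ID1* was 2.83 in Rep1 and 2.48 in Rep2. It also kept the same ratio to *GFAP*, 0.111 in Rep1 and 0.108 in Rep2. *PAX2*, which marks optic nerve astrocytes during development and is one of the markers with which the study stained cultured human astrocytes, was listed at 0 in Rep1 and reached 0.804 TPM in Rep2, at percentile 12.7 of the mean.

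*NFIB* and the *ID* genes are shown by their promoter windows because they stood at the opposite ends of this group. *NFIB* lies on chromosome 15 from 69272440 to 69513341 on the plus strand, and its window (chr15:69272190-69272439) lies before the outermost of 14 annotated starts. *ID1* lies on chromosome 10 from 66852363 to 66853477 on the plus strand (window chr10:66852113-66852362), *ID3* on chromosome 1 from 201209416 to 201211335 on the plus strand (window chr1:201209166-201209415), and *ID4* on chromosome 4 from 150146881 to 150149254 on the minus strand (window chr4:150149255-150149504). Capitals mark GGCGCC, a GC-rich site that SMAD proteins can bind, in *NFIB*, TATAAA or its reverse complement TTTATA in *ID1* and *ID4*, and TTGGC in *ID1*.
NFIB: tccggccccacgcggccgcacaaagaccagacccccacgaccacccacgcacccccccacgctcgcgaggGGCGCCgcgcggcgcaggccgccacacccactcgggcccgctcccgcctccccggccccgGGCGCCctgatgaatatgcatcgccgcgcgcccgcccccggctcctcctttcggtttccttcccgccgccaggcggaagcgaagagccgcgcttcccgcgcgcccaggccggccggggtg
ID1: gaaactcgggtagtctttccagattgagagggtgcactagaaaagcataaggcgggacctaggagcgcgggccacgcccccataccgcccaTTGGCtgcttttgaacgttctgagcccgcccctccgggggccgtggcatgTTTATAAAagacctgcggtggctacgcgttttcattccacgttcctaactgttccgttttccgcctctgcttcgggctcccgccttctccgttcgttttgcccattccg
ID3: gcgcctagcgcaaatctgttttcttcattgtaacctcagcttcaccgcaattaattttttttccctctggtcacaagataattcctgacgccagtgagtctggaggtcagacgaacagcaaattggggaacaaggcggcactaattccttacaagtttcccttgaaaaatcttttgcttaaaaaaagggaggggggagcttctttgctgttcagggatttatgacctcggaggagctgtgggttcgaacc
ID4: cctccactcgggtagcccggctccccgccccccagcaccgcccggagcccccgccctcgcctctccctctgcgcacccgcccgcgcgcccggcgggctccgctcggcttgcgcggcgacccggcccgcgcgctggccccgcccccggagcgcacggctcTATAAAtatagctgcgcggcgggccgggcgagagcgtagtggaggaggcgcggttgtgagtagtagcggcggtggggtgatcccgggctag
The *ID1* window held TTTATA and TATAAA in overlapping letters beginning 109 and 107 bases before the start, and the *ID4* window held TATAAA 91 bases before it. *ID3* had no match, and *NFIB* had 2 matches to GGCGCC, 180 and 120 bases before the start. Over the 36 windows TATAAA was found in 6 (16.7%), against 8.51% of 16672 windows of listed genes, TTGGC in 18 (50.0%) against 40.7%, and GGCGCC in 4 (11.1%) against 18.7%. TGANTCA, the AP-1 site, was found in 3 (8.33%) against 4.74%, and TTCNNNGAA, the STAT site, in 1 (2.78%), that of *TNC*, against 5.86%. The full NFI palindrome, TTGGC followed by GCCAA after a gap of 5 bases, was in none of the 36 and in 3 of the 16672. Both strands were searched, and a match describes letters, not binding.

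Secreted products ranged from the most abundant of the 36 genes to the least. *CLU*, encoding the chaperone clusterin, was at 809 TPM in Rep1 against 10446 TPM in Rep2, and took 24.0% of the summed astrocyte level in Rep1 and 45.2% in Rep2. *SPARCL1*, encoding a matrix protein of astrocytes and endothelial cells that promotes synapses, was at 156 and 1445 TPM. *SERPINA3*, an acute phase protease inhibitor raised in reactive astrocytes, was at 5.51 and 85.4 TPM. *CHI3L1*, encoding a chitinase-like protein of reactive astrocytes and macrophages, was at 1.07 TPM in Rep1, resting on at least 1 read, and at 15.2 TPM in Rep2. *AGT*, encoding angiotensinogen, was listed at 0 in Rep1 and at 7.30 TPM in Rep2. All 4 of the genes above 0 in both libraries were at least 2-fold lower in Rep1, as were 58.7% of all genes averaging 1 TPM or more. *CLU* was 12.9-fold and *SERPINA3* 15.5-fold lower, both with larger ratios than *GFAP* at 6.58-fold.

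Of the markers of injury and inflammation, *LCN2*, *STEAP4* and *TNC* were close to the lower end of the range. *LCN2*, encoding lipocalin 2, was listed at 0 in Rep1 and at 0.699 TPM in Rep2, the lowest of the 36 genes by mean, at percentile 11.7. *STEAP4* was listed at 0 in Rep1 and at 1.53 TPM in Rep2, and *TNC*, encoding the injury matrix protein tenascin C, at 0 and 1.48 TPM. Of the 200 genes nearest in Rep2, 69.5% for *LCN2* and 62.0% for *STEAP4* and for *TNC* were also listed at 0 in Rep1, so a 0 was the usual value there for genes at these Rep2 levels. *CD44*, encoding the hyaluronan receptor, which is also present on immune cells, was an exception, at 124 TPM in Rep2 and 4.09 TPM in Rep1, the latter on at least 3 reads. Its log2 difference of -4.62 was 1.98 times the root mean square difference of its nearest genes, second to *AQP4*. Among 24 further genes of the reactive state, 23 were above 0 in at least 1 library, 7 of them listed at 0 in Rep1, as were 30.2% of the 14693 genes found in either library. At least 2-fold differences were found for 19 that were lower and 1 that was higher in Rep1, against 58.7% and 18.2% of all genes averaging 1 TPM or more. The highest were *TIMP1*, a metalloproteinase inhibitor, at 141 TPM in Rep1 against 969 TPM in Rep2, *S100A10* at 75.8 and 807 TPM, and *SERPING1*, the complement C1 inhibitor, at 91.7 and 718 TPM. *CP*, encoding ceruloplasmin, and *S1PR3*, a sphingosine phosphate receptor, were higher in Rep1, at 30.5 against 11.1 TPM and 2.18 against 0.760 TPM. Many of these genes are also expressed by fibroblasts, vessels and microglia, whose markers were present in both libraries, so their levels cannot be assigned to astrocytes. The fibroblast markers, led by *DCN* and *COL1A2*, summed to 1732 TPM in Rep1 against 15857 TPM in Rep2, and the microglia and macrophage markers, led by *CD74* and *C1QB*, to 375 and 1323 TPM.

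**Figure D2:**
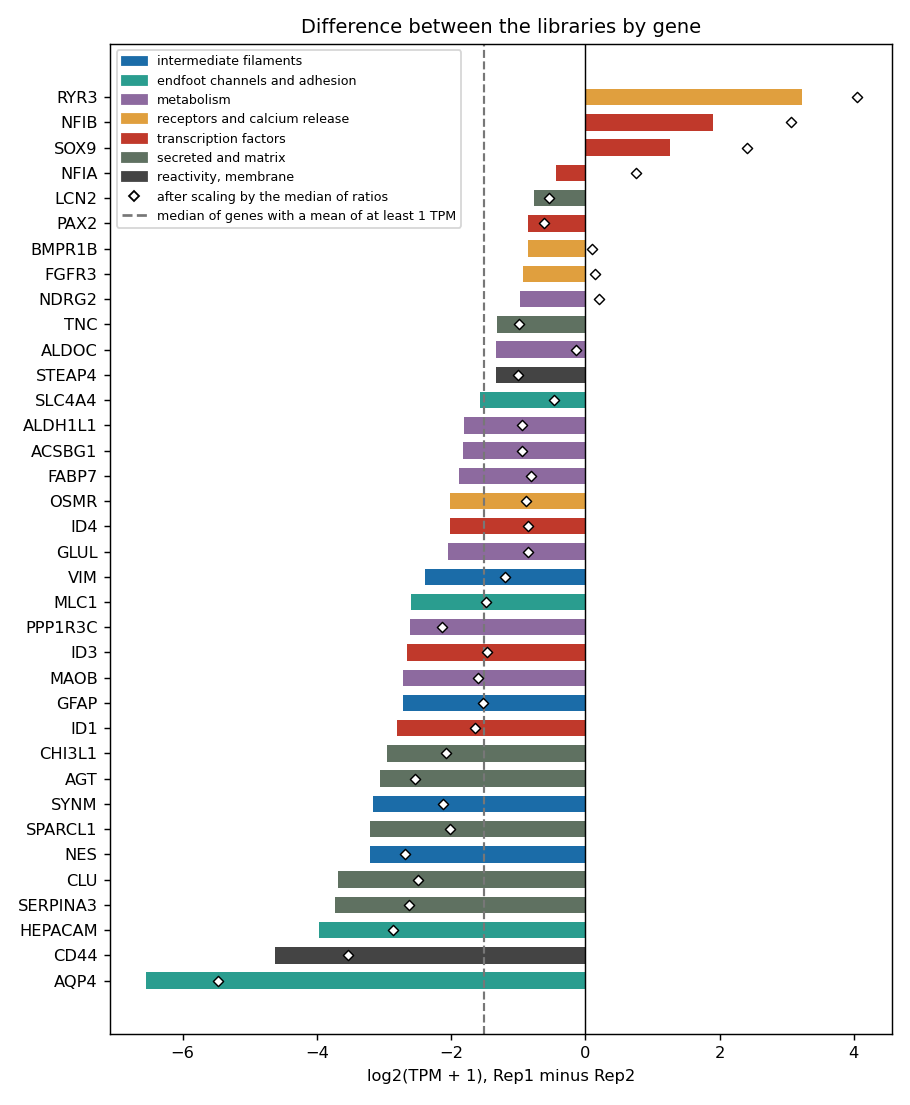
Difference in log2(TPM + 1) between Rep1 and Rep2 for each astrocyte gene, with bars for the deposited values, coloured by role, diamonds for median-ratio scaling, and a dashed line at the median of all genes averaging 1 TPM or more for the deposited values (-1.52). *AQP4* and *CD44* lie farthest below it, and the bars of *RYR3*, *NFIB* and *SOX9* point to the right.

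Across the 36 genes, 33 were lower and 3 higher in Rep1, where 11146 and 3547 of the 14693 genes were. After median-ratio scaling 29 of the 36 were lower and 7 higher, against 9518 and 5175 of the 14693. As deposited, 27 of the 36 were at least 2-fold lower in Rep1 on the log2(TPM + 1) scale. Another 3 were at least 2-fold higher there. Of the 32 averaging 1 TPM or more, 25 (78.1%) were at least 2-fold lower in Rep1, where 58.7% of the 11754 genes above that mean were, and 3 (9.38%) were at least 2-fold higher, where 18.2% were. The median difference was -2.49 for these 32 genes and -1.52 for the 11754. Under median-ratio scaling 17 of the 32 (53.1%) were at least 2-fold lower, against 40.2% of all, and the same 3 genes were higher, against 28.8%. Under this scaling the difference of *NFIA*, *NDRG2*, *FGFR3* and *BMPR1B* turned from below to above 0, at 0.75, 0.21, 0.14 and 0.09. For 21 of the 36 genes the difference was larger than the root mean square difference of their nearest genes, as it was for 47.8% of the 14693 genes, and 20 of these were lower in Rep1, against 40.8%, with *RYR3* the 1 that was higher. The 20 include all 7 genes listed at 0 in Rep1. A gene at 0 in 1 library has the largest difference possible at its mean level, so these 7 had to pass. The same holds for the 30.2% of the 14693 genes that were listed at 0 in Rep1 only. By role and as deposited, the median log2 difference was -3.28 for the endfoot genes, -3.05 for secreted products, -2.98 for the pair of reactive membrane genes *CD44* and *STEAP4*, -2.94 for filaments, -1.85 for metabolism, -0.90 for receptors and calcium release, and -0.85 for transcription factors. The transcription factor median was the value of *PAX2*, a gene listed at 0 in Rep1 whose difference is limited by its low level in Rep2. The 11 reactivity genes analysed had a median of -2.72 and the 25 identity genes one of -1.88, and 4 of the former and 3 of the latter were listed at 0 in Rep1.

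**Figure D3:**
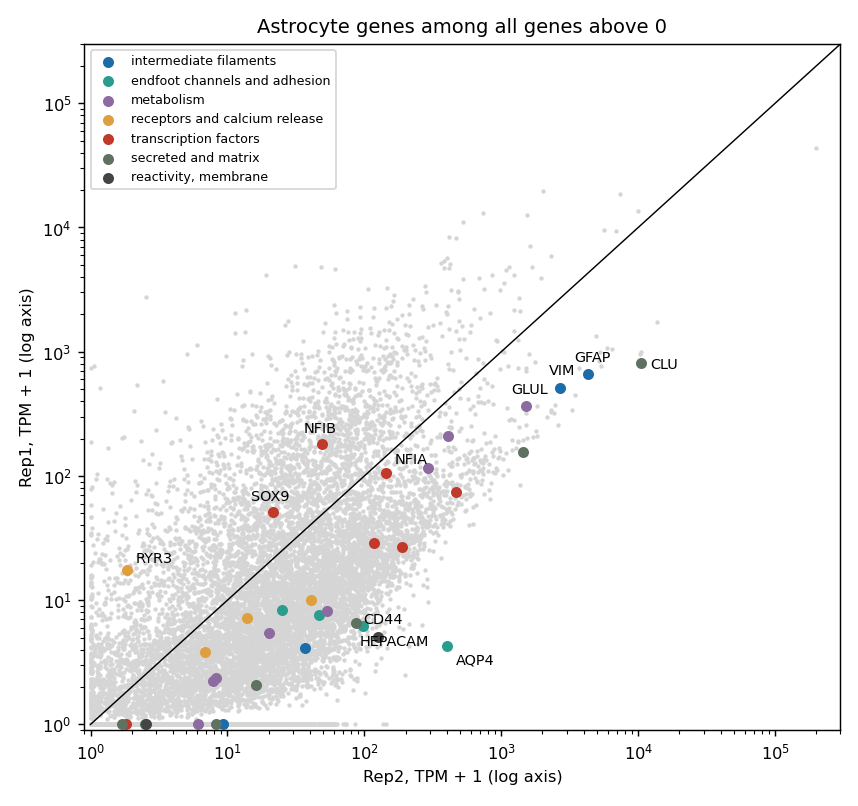
TPM + 1 in Rep2 (horizontal, log axis) against Rep1 (vertical, log axis) for the 14693 genes above 0 in at least 1 library (grey) and the 36 astrocyte genes (coloured by role), with a line at equal values. The astrocyte genes lie mostly below the line, 7 of them on the floor of genes listed at 0 in Rep1, and *SOX9*, *NFIB* and *RYR3* lie above it.

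Since the ratio of genes within a library is free of the scaling between libraries, each gene was also set against *GFAP*. Of the 28 other genes above 0 in both libraries, 14 kept their ratio to *GFAP* within 2-fold, among them *VIM*, *ID1*, *ID3*, *ID4*, *MLC1*, *MAOB*, *GLUL*, *ALDH1L1* and *OSMR*. Over the 10167 other genes above 0 in both libraries, 33.3% did. The Rep1 value of *ALDH1L1* may rest on 1 read, so its ratio is uncertain. Against *GFAP*, 9 of the 28 were at least 2-fold more in Rep1, where 59.9% of the 10167 genes were, of which *NFIA*, *SOX9*, *NFIB* and *RYR3* exceeded 4-fold, as did 43.1% of the 10167 genes. For *NFIB* the ratio to *GFAP* was 24.8 times larger in Rep1, and for *SOX9* it was 16.2 times larger. Against *GFAP*, 5 of the 28 were at least 2-fold less in Rep1, where 6.79% of the 10167 genes were, namely *AQP4*, *CD44*, *HEPACAM*, *SERPINA3* and *CHI3L1*.

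**Figure D4:**
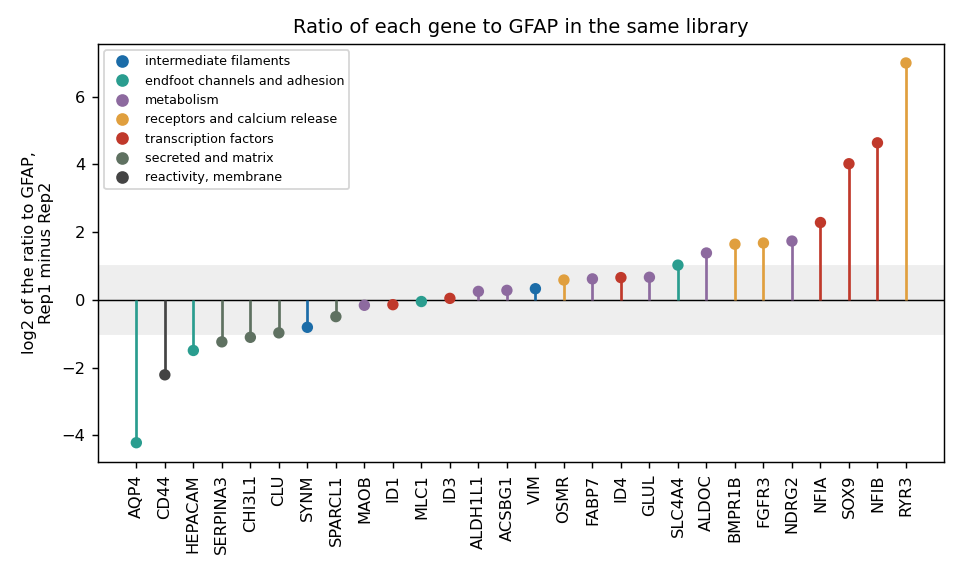
Log2 of each gene's ratio to *GFAP* in the same library, Rep1 minus Rep2, for the 28 other astrocyte genes above 0 in both libraries, coloured by role. The grey band marks ratios that differ by less than 2-fold, which hold for 14 genes, and *AQP4* and *RYR3* are the ends of the range.

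By their mean on the log2(TPM + 1) scale the genes formed a gradual series from *CLU* to *LCN2*. The spread of a single library, estimated from the 200 genes nearest in level, was 1.81 on the log2 scale for *GFAP* and 1.47 for *AQP4*. Of the 35 neighbouring pairs in this series 0 differed by more than 1 SD. Sorted genes lie close to their neighbours, the widest gap being 0.79 on the log2 scale. A count of 0 was therefore nearly certain beforehand and says nothing about any pair. The SD also takes in the shift between the libraries, which does not alter the order of genes within a library. *CLU* exceeded *GFAP* by 0.435 SDs and *GFAP* exceeded *VIM* by 0.289 SDs. Genes farther apart could be placed in order, as *CLU* differed from 30 of the 35 other genes by more than 2 SDs, *GFAP* from 28 and *VIM* from 27. In the middle of the series *OSMR* and *MLC1* each differed from 10 of the other 35 by that margin, and at its lower end *LCN2* differed from 24.

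Other genes of these pathways were read beside the astrocyte genes. Of 21 further homeostatic astrocyte genes 15 were at least 2-fold lower and 2 at least 2-fold higher in Rep1, where 58.7% and 18.2% of all genes averaging 1 TPM or more were. Their median difference was -2.53, against -1.52 over those genes. *CST3*, encoding cystatin C, was at 964 TPM in Rep1 against 10288 TPM in Rep2, *APOE* at 337 and 3259 TPM, and *S100B*, a calcium-binding protein of astrocytes and oligodendrocytes, at 323 and 2299 TPM. *GLUD1*, encoding glutamate dehydrogenase, was at 446 and 86.8 TPM, and *CLDN10* at 5.20 and 1.09 TPM, the 2 that were at least 2-fold higher in Rep1. Of 6 other glial transcription factors 3 were at least 2-fold higher in Rep1, *NFIX* at 363 against 99.7 TPM, *HES1* at 182 against 39.4 TPM and *HES5* at 41.6 against 0.352 TPM, and 2 were at least 2-fold lower. *SOX2* was at 80.7 and 154 TPM. Their median difference was 0.46, and 1.65 with median-ratio scaling.

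Of 14 genes of gp130 and STAT3 signalling, through which *OSMR* acts, 8 were at least 2-fold lower and 3 at least 2-fold higher in Rep1, shares near the 58.7% and 18.2% of all genes. *SOCS3*, the feedback inhibitor of STAT3 signalling, was at 313 TPM in Rep1 against 18.4 TPM in Rep2, *CNTFR*, a receptor subunit for ciliary neurotrophic factor, at 64.6 and 10.8 TPM, and *JAK1* and *STAT3* at 331 and 155 TPM in Rep1 and 181 and 137 TPM in Rep2. Around *BMPR1B* and the *ID* genes, 8 of 16 genes of bone morphogenetic protein signalling were at least 2-fold lower in Rep1 and 3 at least 2-fold higher, again near the shares over all genes. The 3 were *SMAD4*, the shared partner of receptor-activated SMADs, at 423 and 32.1 TPM, the inhibitory *SMAD6* at 45.6 and 5.18 TPM, and the inhibitory *SMAD7* at 129 and 47.0 TPM. *ID2* was at 389 TPM in Rep1 against 751 TPM in Rep2, the highest of that list by mean and above *ID3* in both libraries.

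The sum of the astrocyte genes was lower in Rep1, as were those of the glial, vascular and connective tissue markers examined. It was 6.85-fold higher in Rep2, and the corresponding ratio was 4.59 for 7 oligodendrocyte markers, led by *MBP* and *MOBP*, 9.16 for meningeal fibroblasts, 5.35 for pericytes and smooth muscle, led by *ACTA2* and *RGS5*, 3.53 for microglia and macrophages, and 3.38 for endothelial cells, led by *PECAM1* and *CLDN5*. Markers of retinal ganglion cells and neurons summed to 1182 TPM in Rep1 against 1761 TPM in Rep2, with *THY1* at 203 and 1535 TPM and *SYT1* at 769 and 11.8 TPM. *THY1* thus made up most of the Rep2 sum. Of the 8 markers 4 were higher in Rep1, as were 3306 of the 11754 genes averaging 1 TPM or more. The median log2 difference of the 8 was 0.31, against -1.52 over those genes. Pigment epithelium markers, led by *TTR* and *MITF*, summed to 53.8 and 112 TPM. Muller glia share *VIM*, *GLUL*, *CLU*, *AQP4* and *SOX9* with astrocytes. Their 4 markers summed to 194 and 880.3 TPM, led by *DKK3* and *WIF1*, which were lower in Rep1, with *RGR* listed at 0 there. *RLBP1*, the retinaldehyde-binding protein of Muller glia, was at 76.7 TPM in Rep1 against 6.12 TPM in Rep2 and was singled out after its values were seen. Whether Rep1 held retinal RNA, and any part of it in the *SOX9*, *NFIB* and *RYR3* values, was not tested.

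**Figure D5:**
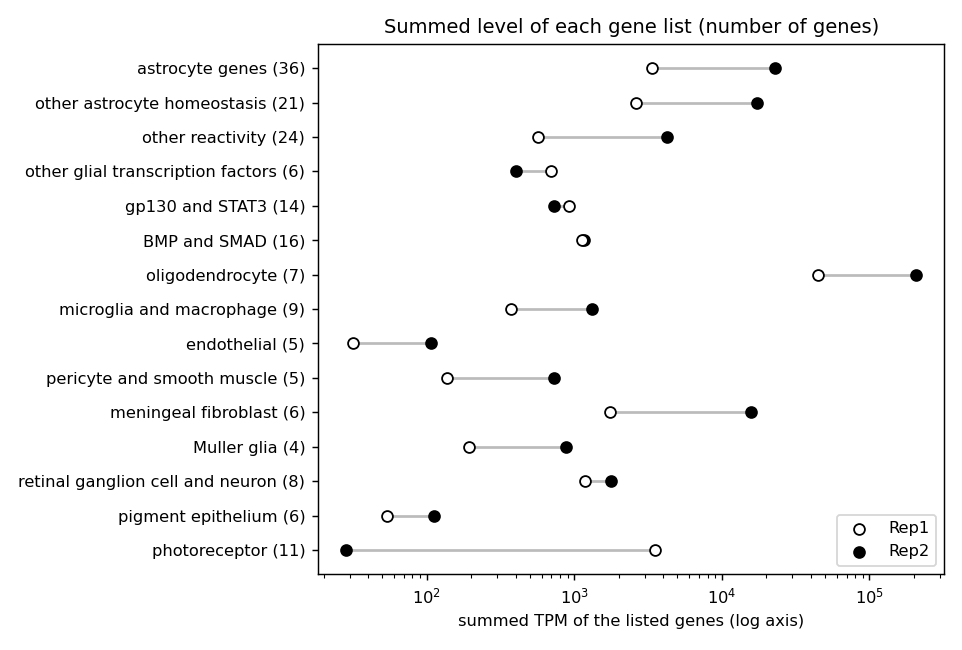
Summed TPM (log axis) of the 36 astrocyte genes and of 14 other gene lists in Rep1 (open circles) and Rep2 (filled circles), with the number of genes in each list in brackets. The astrocyte sum is 3370.3 TPM in Rep1 against 23091 TPM in Rep2, and the photoreceptor sum lies on the other side, at 3521 and 28.5 TPM. The sums of gp130 and STAT3 genes (926 and 724 TPM) and of other glial transcription factors (698 and 405 TPM) are also higher in Rep1.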

How the data were processed

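Total RNA of macaque optic nerves was amplified with a SMARTer low-input kit (v4), made into libraries and sequenced on a NovaSeq S4 flow cell. The authors checked reads with FastQC 0.11.9, trimmed them with Trim Galore 0.6.6, aligned them with STAR 2.7.1a to Mmul_10, and used featureCounts 1.5.3 with the RefGene annotation for gene counts. The deposited values are TPM made by the authors from those counts, for 16684 genes in 2 libraries that were not pooled. Gene lengths, strand and the treatment of reads with several alignments are not given in the sources used here. TPM values sum to a fixed total in a library, so an abundant transcript such as *MBP* lowers the rest. The columns are named Rep1 and Rep2, and no label pairs them with the sample titles.

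Python 3.11.15 was used with numpy 2.4.6, scipy 1.17.1, pandas 2.3.3 and, for plots, matplotlib 3.10.9. A pseudocount of 1 was added before log2 values were compared, so changes of low genes are understated. The background was all genes averaging 1 TPM or more. Spread per library (SD) was estimated for each gene from its 200 closest genes by mean, using how far Rep1 and Rep2 lay apart. Read ratios were called whole within a tolerance of 1e-12, which held for 99.9% of 10168 genes. TPM gives no interval or detection limit per gene, and with 1 group no p-value was computed. Positions and promoters came from the RefSeq annotation and genome of Mmul_10, where all 36 genes were found. Promoters were the 250 bases before the outermost annotated start. Of the 36 genes, 9 are overlapped by a gene on the opposite strand and 2 by one on the same strand.

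Every listed gene was described. Of the other pathway lists, the 3 genes of highest mean and up to 2 that were higher in Rep1 were named. From each marker list came the 2 of highest mean, with a few more from the photoreceptor and Muller glia lists. The genes and lists were chosen with earlier results of these data known. The alternatives tried were median-ratio scaling, a smaller pseudocount (0.1), removal of the 10 most abundant genes, geometric means, a minimum of 1 TPM, and each library alone. A further oligodendrocyte marker is not reported here. The code was tested on simulated data.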

Additional observations from a re-analysis of the deposited data

How the results depend on the processing

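No paired analysis was possible because both libraries belong to 1 group. The number of astrocyte genes at least 2-fold lower in Rep1 ran from 18 with median-ratio scaling to 31 with a pseudocount of 0.1, against 27 as reported. The number higher was 3 under each of the 4 alternatives. Over the 14693 genes above 0 in at least 1 library, 7533 were lower by that margin as deposited and 4972 with median-ratio scaling. No such count was made with a pseudocount of 0.1 or without the 10 most abundant genes, so those settings have no background. The median difference of the astrocyte genes ran from -0.997 to -2.73. The summed level was 8822 TPM as a geometric mean and 17341 TPM without the 10 most abundant genes, and 3370.3 and 23091 TPM in the single libraries. The mean of *NFIA* moved beyond its spread, to 156 TPM, without the 10 most abundant genes, which raises every other value. With 2 libraries the distance of either from their mean is fixed in SD units, so values of single libraries are no check of stability. The shallow Rep1 limits the lower levels, where 15 of the 29 genes above 0 in both libraries may rest on 10 reads or fewer.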
